A study of Homo sapiens with 6 samples.

Results

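Semaphorins, Slits, netrins and ephrins are ligands that tell a moving cell or a growing axon where to go, and plexins, Robos, UNC5 proteins and Eph kinases are their receptors. All protein-coding genes of these families were taken from the deposited count table by symbol, which gave 66 genes of 58735 rows, 35 of them ligands and 31 receptors. RNA sequencing measured them in LX-2, an established cell line derived from human hepatic stellate cells, the liver cells that deposit matrix during scarring. In 3 libraries the cells carried siRNA, a small RNA that lowers its target transcript, against the RNA methyltransferase NSUN2 and received the fibrogenic cytokine TGF-β1 at 5 ng/ml for 24 hours, starting 48 hours after transfection. The other 3 libraries came from cells with the same siRNA and no TGF-β1, called untreated here. The titles of these samples give no time after transfection, so it may differ between the groups. Every library is labelled wild type and has the siRNA, so what is compared is TGF-β1 against no TGF-β1 among siRNA cells, and the siRNA's own effect is not measured. NAT10 also appears beside NSUN2 in the series' design text; groups here follow the labels of the samples. Separate cultures are not described for the replicates, so p-values measure only the spread between these libraries, which may be technical.

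Semaphorins bind plexins, and most secreted class 3 semaphorins need a neuropilin as co-receptor. Slits bind Robos, netrins bind DCC, neogenin and UNC5 proteins, and ephrins, which stay attached to the cell, bind Eph receptor tyrosine kinases on a neighbouring cell. Many of these receptors act on small GTPases and the actin cytoskeleton, and outside the nervous system they take part in vessel growth, immune cell movement and tissue remodelling. SEMA7A, ephrin-B2 and Slit2 have each been studied in tissue scarring in mice.

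The libraries held 25828504 to 29978361 counts with TGF-β1 and 26957170 to 30034762 counts untreated. NSUN2 stood at 102.7, 97.0 and 101.9 normalised CPM (read counts scaled to a common library size) with TGF-β1, against 81.4, 82.9 and 84.4 CPM untreated, so the siRNA target was measured in every library and the extent of its knockdown cannot be computed from these groups. NSUN2 was higher with TGF-β1 (log2 fold change 0.28 ± 0.04, SE, edgeR adjusted p = 1.57e-06), so the target was not level between the groups. Of 12 stellate or mesenchymal markers, 6 rose and 4 fell; LRAT, the retinol esterifying enzyme of quiescent stellate cells, had 0 counts in every library. The summed level of that list was 5546 to 6194 CPM with TGF-β1 and 2688 to 2726 CPM untreated, most of it COL1A1, at 3776 to 4359 CPM with TGF-β1 and 1412 to 1424 CPM untreated. The 4 that fell were ACTA2, GATA4, HAND2 and RELN. The hepatocyte markers APOB and TTR were at 0 counts in every library, and the 6 hepatocyte markers summed to 21.3 to 23.2 CPM with TGF-β1 and 23.6 to 27.4 CPM untreated. Most of that was SERPINA1, at 21.1 to 23.0 CPM with TGF-β1 and 23.5 to 27.3 CPM untreated, which was not called. The 6 macrophage markers summed to 14.99 to 18.0 CPM with TGF-β1 and 11.8 to 14.8 CPM untreated, with CSF1R higher (1.495 on the log2 scale) and CD14 lower (-1.18), and the 5 biliary or epithelial markers to 56.8 to 58.5 CPM with TGF-β1 and 71.0 to 72.8 CPM untreated. Most of that last sum was SOX9, which fell (-0.38), from 67.9 to 69.8 CPM untreated to 51.4 to 54.5 CPM with TGF-β1. KRT7, the other one tested, rose (0.60). Neuronal and glial markers, 5 in all, summed to 6.84 to 7.89 CPM with TGF-β1 and 7.92 to 8.99 CPM untreated. Of the 3 tested, GFAP fell (-0.75), at 0.927 to 1.455 CPM with TGF-β1 and 1.805 to 2.207 CPM untreated. SYT1 and RBFOX3 were not called (0.318 and -0.759). In bulk RNA, fewer cells of a type and less RNA per cell cannot be told apart.

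With TGF-β1 the guidance genes moved in both directions, and ligands and receptors differed in their balance. The largest called changes at 1 CPM or more were the rise of the netrin receptor UNC5B, 12.6-fold, and the fall of the secreted semaphorin SEMA3A, which was 6.70-fold lower. Of the 66 genes, 56 passed the filter on low counts and were tested. Of these, 20 rose and 17 fell, and 19 were not called (edgeR's quasi-likelihood test; a call is a p under 0.05 after Benjamini-Hochberg adjustment over all 17215 tested genes). The called share was 66.1%, beside 38.9% of all tested genes and 45.5% of tested protein-coding genes (23.8% higher and 21.7% lower). A change of at least 2-fold was called for 15 of the 56, or 26.8%, beside 6.51% of all tested genes and 6.11% of protein-coding ones. These were 8 higher and 7 lower, beside 3.11% and 3.4% of all tested genes. Without SEMA3E and SEMA3G, which passed the filter only through the group where each is high, 35 of 54 were called (19 higher, 16 lower) and 13 of 54 changed at least 2-fold, or 24.1%. Groups lay apart, with no overlap, in 40 of the 56 (22 with TGF-β1 above, 18 below), beside 47.4% of all tested genes (24.1% above, 23.3% below). Among tested protein-coding genes the groups lay apart in 7167 of 13444 (3697 above, 3470 below). The 40 include SEMA3E and SEMA3G, whose direction the filter fixed. With scaling by library totals alone, under which the median gene moved by -0.13 in place of -0.01 on the log2 scale, the split was 14 higher and 19 lower.

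Among the 32 tested ligands 8 rose and 13 fell, with a median log2 fold change of -0.23, and among the 24 tested receptors 12 rose and 4 fell, with a median of 0.20. Over all tested genes 20.2% rose and 18.7% fell, and the median was -0.01. Counts given below for single families rest on few genes each and are to be read beside these shares. The ligand balance was 7 higher and 14 lower with upper-quartile factors and 6 higher and 14 lower with library totals; the receptor balance was 10 higher and 5 lower, and 8 higher and 5 lower. Without SEMA3E and SEMA3G, 7 ligands rose and 12 fell. The difference in balance between ligands and receptors was not tested. Semaphorins made up 19 of the 32 tested ligands, 4 of the 8 that rose and 10 of the 13 that fell. Outside them, Slits and netrins each had 1 gene higher and 1 lower, and ephrins 2 higher and 1 lower. The lower ligand balance thus lay in the semaphorins. All 4 receptors that fell were plexins (PLXNB2, PLXNB3, PLXNC1) or EPHA4.

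**Figure D1:**
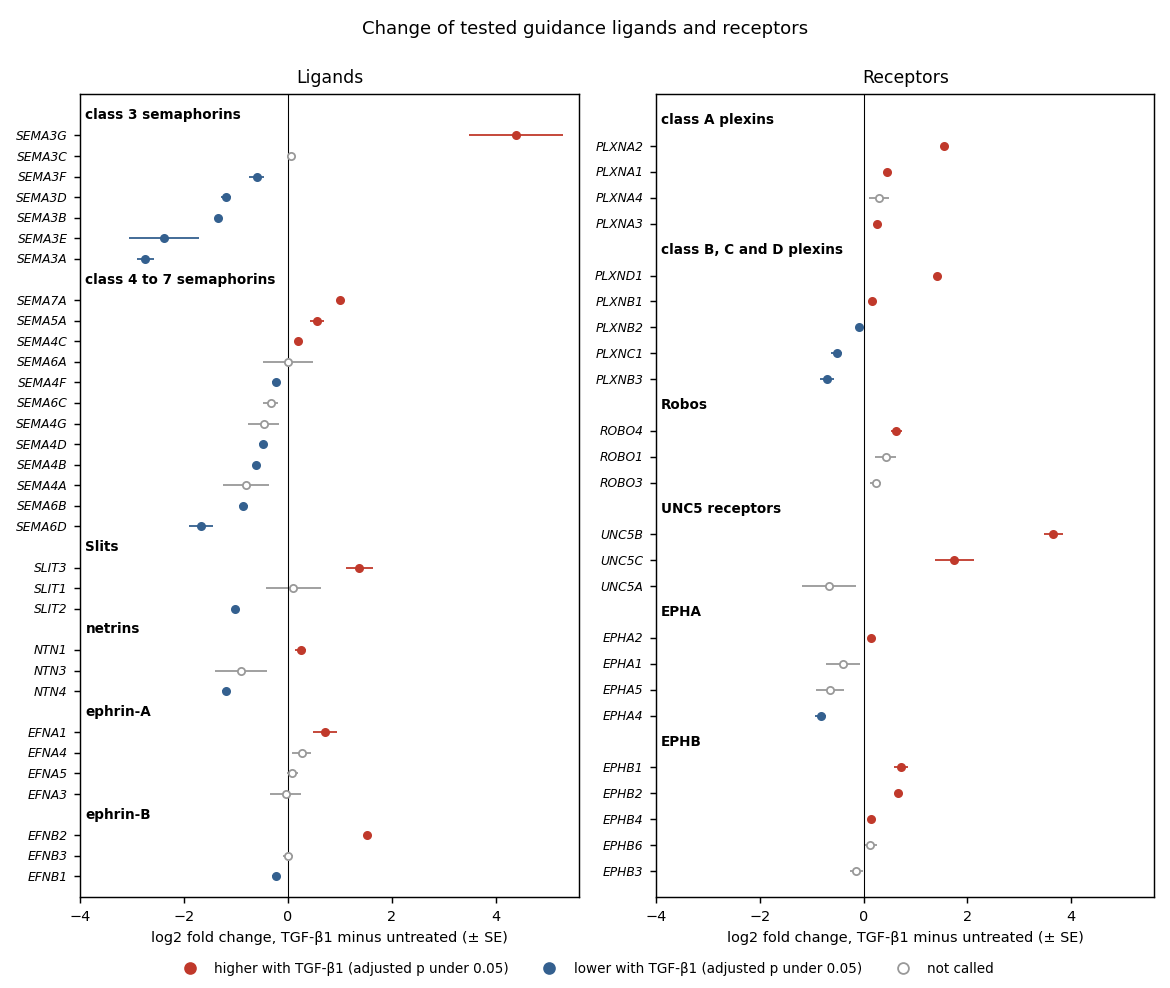
Log2 fold change of the 56 tested genes, TGF-β1 minus untreated, by family, with ligands on the left and receptors on the right. Points are the fitted change and bars its standard error; red points rose, blue points fell and open grey points were not called. Class 3 semaphorins lie mostly left of 0 and class A plexins all right of 0.

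The 10 genes left untested were too low. EPHA3, EPHA6, EPHA7 and ROBO2 had 0 counts in all 6 libraries, where a count of 0 allows up to 3 counts in a library, and EFNA2, EPHA8, EPHA10, NTN5, SEMA5B and UNC5D had at most 21 counts in any library. NTN5 had 3, 2 and 0 counts with TGF-β1 and 6, 21 and 6 counts untreated, and EFNA2 had 16, 4 and 4 counts with TGF-β1 and 2, 1 and 1 untreated. Both gaps rest on few reads. Among the tested genes SEMA3G passed the filter only through the TGF-β1 libraries and SEMA3E only through the untreated ones, so these had to differ.

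Levels between genes are compared on the deposited FPKM scale, which divides by gene length. SEMA7A was the most abundant of the 66, with a mean of 141.3 FPKM over the 6 libraries, followed by EPHA2 with 46.0 and PLXNB2 with 36.2 FPKM, an order that held in the means of each group. The next places differed between groups. SEMA3C averaged 29.65 FPKM with TGF-β1 and 28.2 untreated, SEMA4B 18.8 with TGF-β1 and 28.7 untreated, and EFNB2 19.4 with TGF-β1 and 6.73 untreated. In all, 10 genes had a mean of at least 10 FPKM and 28 were below 1 FPKM.

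**Figure D2:**
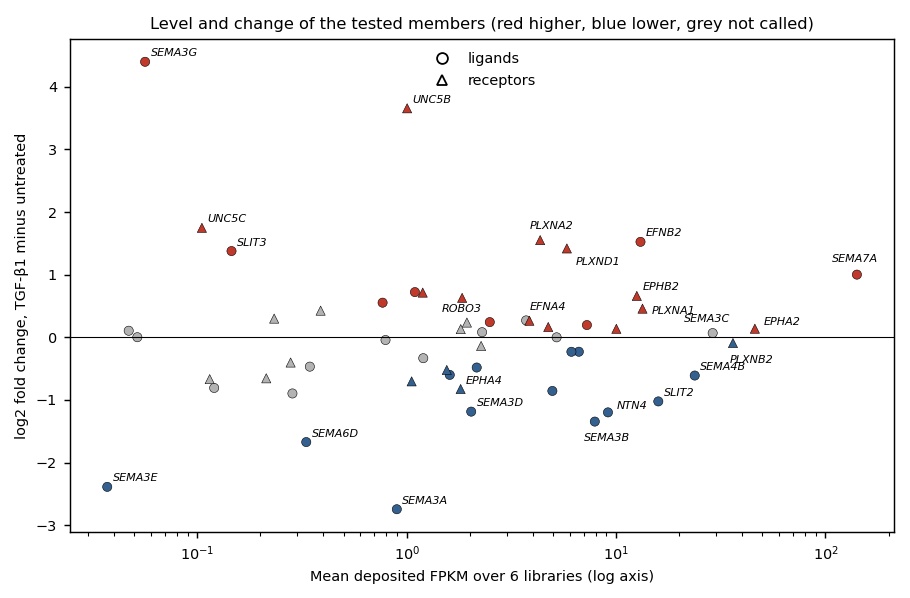
Mean deposited FPKM over the 6 libraries (log axis) against the log2 fold change, TGF-β1 minus untreated, for the 56 tested genes; circles are ligands and triangles receptors. SEMA7A stands at the right edge with a change of 1.00, and the 2 extreme changes, SEMA3G and SEMA3A, belong to genes under 1 FPKM.

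Promoter windows of RefSeq (GRCh38.p14, 250 bases before to 50 after the start) were matched by symbol for 57 of the 66 genes. They are shown because the genes that moved can be set beside motifs of factors known from TGF-β and growth responses. Searched were CAGAC (the SMAD box), TGACTCA (AP-1) and GGAATG (TEAD), on both strands; none of these contains another. CAGAC was found in 5 of 18 windows of genes that rose, 8 of 15 of genes that fell and 6 of 16 of genes not called, and in 45.3% of all 35114 RefSeq windows. TGACTCA was found in none of these 3 sets (0 of 18, 0 of 15 and 0 of 16) and in 4.95% of all windows, and GGAATG in 1, 2 and 2 windows of the same sets and in 14.0% of all. The RefSeq start lay within 100 bases of the gene's 5′ end in the count table for 36 of the 57 windows. The motif counts were not limited to these. Motif letters describe the window and say nothing of binding. Printed are the 250 bases before the start for 4 genes that changed at least 2-fold, had over 10 CPM in both groups and whose RefSeq start lies within 100 bases of the gene's 5′ end in the count table; capitals mark CAGAC or its complement GTCTG. SEMA7A (chr15:74433959-74434208, minus strand) holds 2 matches, and PLXNA2 (chr1:208244385-208244634, minus strand), EFNB2 (chr13:106535663-106535912, minus strand) and NTN4 (chr12:95791156-95791405, minus strand) hold 0. The CPM limit left out SLIT3, which rose and holds 1 match in its 250 bases, and SEMA6D, which fell and holds 0.
SEMA7A: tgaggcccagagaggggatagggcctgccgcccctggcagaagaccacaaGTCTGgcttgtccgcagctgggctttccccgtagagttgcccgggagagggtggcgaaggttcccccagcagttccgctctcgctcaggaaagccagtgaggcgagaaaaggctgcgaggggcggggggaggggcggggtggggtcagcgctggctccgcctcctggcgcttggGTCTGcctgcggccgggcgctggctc
PLXNA2: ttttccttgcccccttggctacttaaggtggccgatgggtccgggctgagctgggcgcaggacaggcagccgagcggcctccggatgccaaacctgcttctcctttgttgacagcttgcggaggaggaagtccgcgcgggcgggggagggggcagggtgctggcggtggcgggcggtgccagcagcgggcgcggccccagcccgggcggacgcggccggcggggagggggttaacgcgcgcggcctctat
EFNB2: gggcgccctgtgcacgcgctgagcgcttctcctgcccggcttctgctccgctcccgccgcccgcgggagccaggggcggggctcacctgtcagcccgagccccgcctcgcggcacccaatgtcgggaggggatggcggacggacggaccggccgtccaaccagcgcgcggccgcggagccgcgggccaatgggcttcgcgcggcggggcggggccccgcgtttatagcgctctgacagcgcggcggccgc
NTN4: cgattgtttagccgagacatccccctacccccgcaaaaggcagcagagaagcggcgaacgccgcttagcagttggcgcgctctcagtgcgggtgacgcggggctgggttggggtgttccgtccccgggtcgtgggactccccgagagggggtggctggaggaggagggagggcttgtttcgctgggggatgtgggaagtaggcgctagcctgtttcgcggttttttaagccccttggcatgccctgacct

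Class 3 semaphorins, the secreted ligands of neuropilins and plexins, fell in 5 of 7 cases and rose in 1, with a median log2 fold change of -1.19. Of the 5 left without SEMA3E and SEMA3G, whose direction the filter fixed, 4 fell and 0 rose. SEMA3A, which makes growth cones collapse through NRP1 (chromosome 7, 83955777 to 84492724, minus strand, hg38), had 1.90, 2.86 and 1.93 CPM with TGF-β1, against 14.3, 13.8 and 17.1 CPM untreated. Every TGF-β1 library lay below every untreated one, and the log2 fold change was -2.74 ± 0.16 (SE; adjusted p = 8.87e-19). SEMA3B, whose product also binds neuropilins (chromosome 3, 50267558 to 50277546, plus strand), had 28.1, 26.3 and 25.3 CPM with TGF-β1, against 65.7, 66.3 and 70.4 CPM untreated. SEMA3D (chromosome 7, 84995553 to 85186855, minus strand) had 10.6, 9.49 and 10.8 CPM with TGF-β1, against 24.2, 22.6 and 23.5 CPM untreated. Neither gene's groups overlapped, and their log2 fold changes were -1.35 ± 0.06 (adjusted p = 5.32e-22) and -1.19 ± 0.10 (adjusted p = 7.51e-14).

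SEMA3F, a ligand of NRP2, was 1.52-fold lower, at 6.34 ± 0.65 CPM with TGF-β1 and 9.61 ± 1.58 CPM untreated (SD, n = 3; edgeR adjusted p = 5.98e-04). SEMA3E, which binds PLXND1 without a neuropilin, had 1, 3 and 4 counts with TGF-β1 and 16, 19 and 14 untreated. Its count ratio was 5.41-fold lower with TGF-β1, and the exact 95% range from counting error alone was 2.54 to 13.2. SEMA3G, another NRP2 ligand, ran the other way, with 12, 12 and 20 counts with TGF-β1 and 2, 0 and 0 untreated. Its count ratio was 24.9, with a range of 6.50 to 212.1 from counting error. Both stayed under 1 CPM in every library. The filter fixed the direction of both, so these ranges cannot test it.

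SEMA3C, which signals through neuropilins with class A plexins and PLXND1, was the most abundant class 3 gene and was not called. It had 195.3, 195.1 and 182.7 CPM with TGF-β1, against 186.5, 177.2 and 183.0 CPM untreated, and the groups overlapped. The log2 fold change was 0.07 ± 0.04 (adjusted p = 0.146), with a sign that turned to -0.05 with library totals alone, and it was called without TGF-β1 replicate 3 (0.10, adjusted p = 0.0477). SEMA3C made up 80.0% to 80.4% of the summed class 3 FPKM in the TGF-β1 libraries and 61.0% to 61.9% in the untreated ones. The class sum was 37.0 ± 1.28 FPKM with TGF-β1 and 46.0 ± 1.10 FPKM untreated (SD, n = 3).

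Semaphorins of classes 4 to 7, which are attached to the cell surface, were divided, with 3 of 12 tested genes higher and 5 lower. These are 25.0% and 41.7%, beside 23.8% and 21.7% of tested protein-coding genes, so the share that rose was near the background. SEMA7A, held in the membrane by a lipid anchor and a ligand of PLXNC1 and of integrin β1 (chromosome 15, 74409289 to 74433958, minus strand), had 721.5, 742.8 and 746.6 CPM with TGF-β1, against 367.7, 377.4 and 359.4 CPM untreated. The groups stood far apart, and the log2 fold change was 1.00 ± 0.03 (SE; adjusted p = 1.96e-28). On the FPKM scale SEMA7A was 71.0% ± 0.91 of all semaphorin expression with TGF-β1 and 48.5% ± 0.76 untreated (SD, n = 3). The semaphorin sum was 263.6, 267.1 and 266.7 FPKM with TGF-β1 and 194.0, 195.5 and 192.3 FPKM untreated. SEMA7A alone therefore accounted for more FPKM with TGF-β1, 188.7 ± 3.64 on average, than all class 3 genes and all other surface semaphorins together.

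SEMA5A, which carries thrombospondin repeats, rose by 0.55 ± 0.13 on the log2 scale (adjusted p = 7.69e-04), and SEMA4C, a PLXNB2 ligand, by 0.20 ± 0.06 (adjusted p = 0.00778). SEMA5A was not called in any of the 3 FPKM-based alternatives, and the highest adjusted p of its 17 alternatives was 0.171. Without untreated replicate 3 SEMA4C was not called (0.16, adjusted p = 0.0578), nor with library totals alone, and the highest adjusted p of its 17 alternatives was 0.323. SEMA6D, a surface ligand of PLXNA1 (chromosome 15, 47184101 to 47774223, plus strand), had 1.42, 1.64 and 1.12 CPM with TGF-β1, against 5.05, 4.73 and 3.57 CPM untreated. Its groups did not overlap, and its log2 fold change was -1.67 ± 0.23 (adjusted p = 9.83e-08). SEMA6B fell to 16.1 ± 1.01 CPM with TGF-β1, against 29.04 ± 1.05 CPM untreated (SD, n = 3; edgeR adjusted p = 1.66e-11).

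In class 4, SEMA4B fell by 0.61 on the log2 scale, to 135.6 ± 1.71 CPM with TGF-β1, against 207.0 ± 7.48 CPM untreated (SD, n = 3; edgeR adjusted p = 6.85e-18). SEMA4D, a PLXNB1 ligand best known from lymphocytes, fell by 0.48 (adjusted p = 6.04e-07), and SEMA4F by 0.23 (adjusted p = 0.00583). Without TGF-β1 replicate 2 SEMA4F was not called (-0.16, adjusted p = 0.0808). SEMA4A, SEMA4G, SEMA6A and SEMA6C were not called, with log2 fold changes of -0.81, -0.47, 0.00 and -0.33. SEMA4G was called without untreated replicate 1 (-0.78, adjusted p = 0.0371), and SEMA6C without TGF-β1 replicate 1 (-0.50, adjusted p = 0.0118) or untreated replicate 3 (-0.42, adjusted p = 0.0464). SEMA4G shares 27.4% of its exonic bases with other annotated genes, MRPL43 among them, which had 1329 to 1594 counts with TGF-β1 and 1640 to 1869 untreated, so its own low counts are uncertain.

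**Figure D3:**
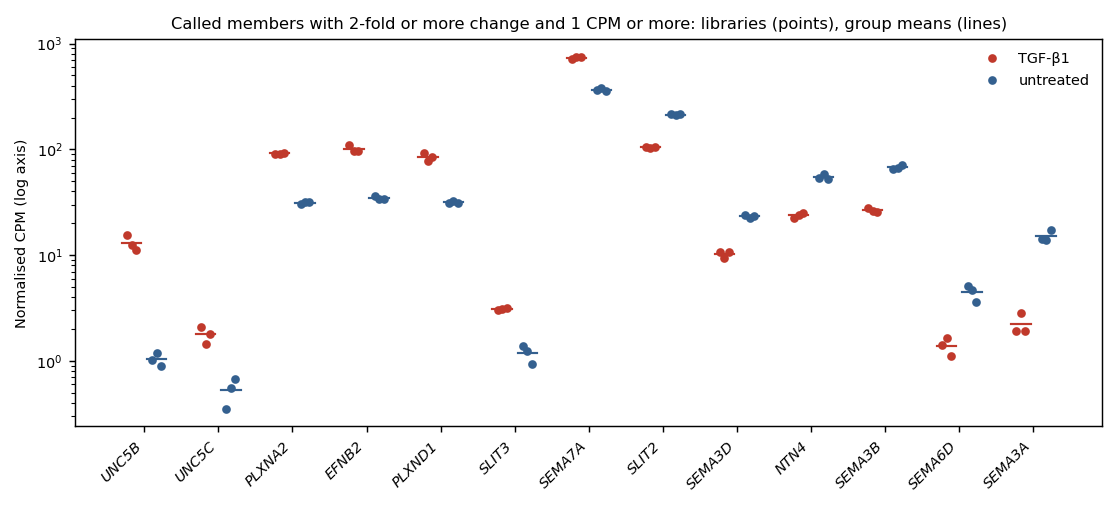
Normalised CPM (log axis) of the 13 called genes with at least 2-fold change and a mean of at least 1 CPM in the higher group; points are libraries, lines group means, TGF-β1 in red left of untreated in blue. In none of the 13 do the groups overlap, which the choice by call and size of change makes likely. Over all tested genes 47.4% had no overlap.

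Plexins, the semaphorin receptors, were all tested, and 5 of 9 rose while 3 fell. The class A plexins, which pair with neuropilins for class 3 ligands, all had higher means with TGF-β1, and 3 of the 4 were called. PLXNA2 (chromosome 1, 208022242 to 208244320, minus strand) had 91.0, 90.9 and 93.4 CPM with TGF-β1, against 30.5, 31.5 and 31.9 CPM untreated. That is a 2.93-fold rise with no overlap between groups (log2 fold change 1.55 ± 0.05, adjusted p = 1.44e-26). PLXNA1, the most abundant class A plexin, had 181.6, 173.3 and 168.2 CPM with TGF-β1, against 126.4, 129.5 and 124.7 CPM untreated. Its rise of 0.46 ± 0.04 was smaller and equally free of overlap (adjusted p = 1.90e-13). PLXNA3 rose by 0.27 ± 0.06 (adjusted p = 8.34e-04), a call lost with library totals alone, and PLXNA4 was not called at 4.33 ± 0.32 CPM with TGF-β1 and 3.52 ± 0.28 CPM untreated (SD, n = 3).

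PLXND1, the receptor of SEMA3E and of SEMA3C with neuropilin (chromosome 3, 129555175 to 129606818, minus strand), had 93.0, 76.9 and 84.9 CPM with TGF-β1, against 31.0, 32.9 and 31.3 CPM untreated. The TGF-β1 libraries spread more than the untreated ones but lay far above them, with a log2 fold change of 1.42 ± 0.06 (adjusted p = 1.76e-22). PLXNC1, the plexin that binds SEMA7A, fell by 0.52 ± 0.10 (adjusted p = 6.48e-05), with 12.7, 14.4 and 11.8 CPM with TGF-β1 and 20.2, 16.1 and 19.7 CPM untreated. PLXNB3 fell by 0.70 ± 0.14 (adjusted p = 5.78e-05); exons of SRPK3 on the same strand lie over 20.4% of its exonic bases, and that gene was not called.

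PLXNB2, a receptor for class 4 semaphorins, was the most abundant plexin, at 268.1, 258.2 and 258.4 CPM with TGF-β1, against 273.6, 288.1 and 274.2 CPM untreated. Its fall of 0.09 ± 0.03 was small (adjusted p = 0.0271) and was lost without TGF-β1 replicate 2 (-0.08, adjusted p = 0.12), without TGF-β1 replicate 3 (-0.08, adjusted p = 0.126) and without untreated replicate 2 (-0.07, adjusted p = 0.135), with 0.16 the highest of its 17 alternatives. PLXNB1 rose by 0.17 ± 0.06 (adjusted p = 0.0267), a call lost without TGF-β1 replicate 1 (0.12), untreated replicate 1 (0.14) or untreated replicate 2 (0.16), with adjusted p-values of 0.152, 0.105 and 0.074; the highest of its 17 alternatives was 0.584. On the FPKM scale PLXNB2 made up 45.5% ± 0.44 of all plexin expression with TGF-β1 and 57.2% ± 0.50 untreated, while PLXND1 made up 10.99% ± 0.79 with TGF-β1 and 4.85% ± 0.05 untreated (SD, n = 3).

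**Figure D4:**
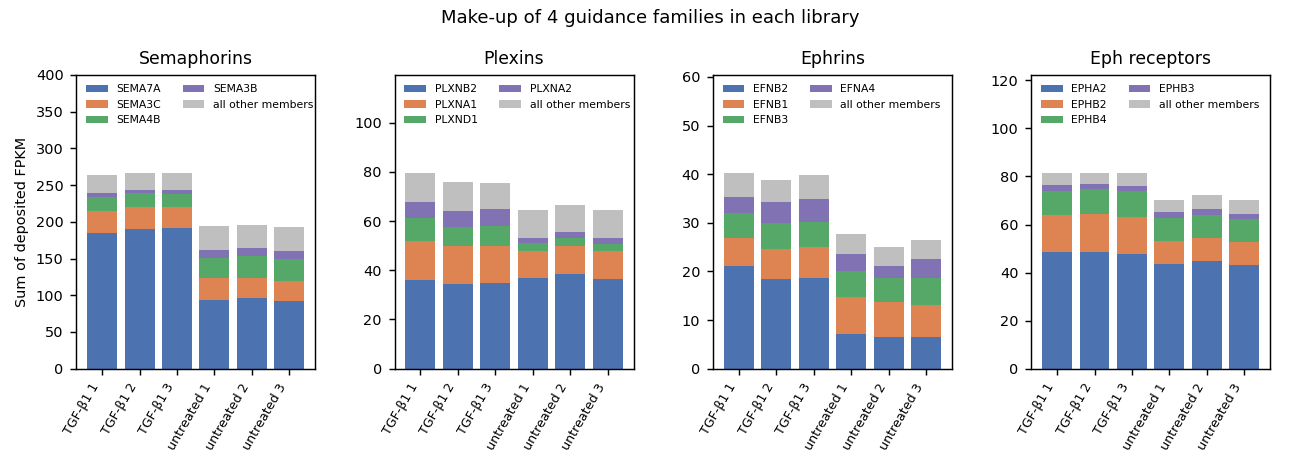
Sum of deposited FPKM in each library for semaphorins, plexins, ephrins and Eph receptors, with the 4 named genes of each family coloured and all others in grey; TGF-β1 libraries stand left of untreated ones. SEMA7A fills most of the semaphorin bars with TGF-β1, and EFNB2 takes 46.9% to 52.3% of the ephrin sum with TGF-β1 and 24.8% to 26.3% untreated.

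Slits, large secreted ligands of Robo receptors, were dominated by SLIT2 (chromosome 4, 20253260 to 20620561, plus strand). It had 105.5, 103.8 and 105.6 CPM with TGF-β1, against 216.2, 209.7 and 213.7 CPM untreated. The libraries of each group lay close together and the groups far apart, with a log2 fold change of -1.02 ± 0.04 (adjusted p = 9.02e-26). SLIT3 (chromosome 5, 168661733 to 169301129, minus strand) went the other way from a low level, with 3.03, 3.07 and 3.17 CPM with TGF-β1 and 1.38, 1.25 and 0.93 CPM untreated (1.38 ± 0.26, adjusted p = 3.27e-05). SLIT2 still made up 97.6% ± 0.13 of the Slit FPKM sum with TGF-β1, against 99.4% ± 0.07 untreated (SD, n = 3). SLIT1 had 10 to 15 counts per library and was not called.

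Robo receptors were expressed at low levels, and 1 of the 3 tested was called. ROBO4, known from endothelium, rose to 16.5, 14.8 and 17.3 CPM with TGF-β1, against 10.8, 10.3 and 10.3 CPM untreated (0.63 ± 0.11, adjusted p = 4.03e-06). ROBO3, which acts in axons crossing the midline and had the highest mean FPKM of the Robos over the 6 libraries, had 15.3, 14.4 and 15.8 CPM with TGF-β1 and 14.4, 12.5 and 11.7 CPM untreated. It was not called (0.24 ± 0.11, adjusted p = 0.0725) except without untreated replicate 1 (0.32, adjusted p = 0.0307). ROBO1, a main receptor of SLIT2, was not called at 4.99 ± 0.89 CPM with TGF-β1 and 3.70 ± 1.10 CPM untreated (SD, n = 3), although it was called without untreated replicate 1 (0.70, adjusted p = 0.0105) or TGF-β1 replicate 2 (0.56, adjusted p = 0.034). Within the TGF-β1 libraries ROBO4 stood at 2.24 ± 0.18 FPKM and ROBO3 at 2.10 ± 0.10 FPKM (SD, n = 3). Exons of other genes lie over 16.95% of ROBO4, and both of those genes had 0 counts in every library.

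Netrins are laminin-related secreted ligands. NTN4, which binds laminins in basement membranes (chromosome 12, 95657807 to 95791152, minus strand), had 22.4, 24.2 and 24.8 CPM with TGF-β1, against 53.6, 58.4 and 52.0 CPM untreated. It was 2.29-fold lower with no overlap (log2 fold change -1.20 ± 0.07, adjusted p = 6.98e-19). NTN1, the classical ligand of DCC and UNC5 receptors, rose by 0.24 ± 0.10 (adjusted p = 0.0475), a call that was lost without TGF-β1 replicate 3 (0.16, adjusted p = 0.285), untreated replicate 1 (0.21, adjusted p = 0.157) or untreated replicate 2 (0.22, adjusted p = 0.14), with 0.336 the highest of its 17 alternatives. NTN3 was not called, with 8, 10 and 14 counts with TGF-β1 and 16, 18 and 33 untreated. NTN1 made up 31.9% ± 1.72 of the netrin FPKM sum with TGF-β1 and 14.8% ± 1.33 untreated, and the sum itself was 8.49 ± 0.56 with TGF-β1 and 15.5 ± 0.69 untreated (SD, n = 3).

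UNC5 receptors, which mediate repulsion from netrins, rose in 2 of the 3 tested genes. UNC5B (chromosome 10, 71212570 to 71302864, plus strand) had 386, 359 and 290 counts with TGF-β1 and 32, 36 and 25 untreated, or 15.6, 12.5 and 11.2 CPM against 1.02, 1.18 and 0.89 CPM. The log2 fold change was 3.66 ± 0.18 (adjusted p = 1.03e-20), and the lowest TGF-β1 library lay far above the highest untreated one. UNC5C (chromosome 4, 95162504 to 95549206, minus strand) had 52, 41 and 47 counts with TGF-β1 and 11, 17 and 19 untreated (1.75 ± 0.38, adjusted p = 1.97e-04). UNC5A was not called, with 6, 18 and 8 counts with TGF-β1 and 19, 20 and 18 untreated. UNC5B thus made up 87.8% ± 1.46 of the UNC5 FPKM sum with TGF-β1, against 43.6% ± 4.63 untreated, where UNC5A held 42.2% ± 1.82 (SD, n = 3). DCC, the attractive netrin receptor, had 0 counts in all 3 TGF-β1 libraries and 8, 0 and 1 counts untreated. UNC5B, ROBO4, PLXND1 and EFNB2 are also known from endothelial cells. Of 6 endothelial markers 3 were tested: TEK rose, while PECAM1 and VWF were not called (0.231 and -0.905 on the log2 scale). The list summed to 35.9 to 40.1 CPM with TGF-β1 and 19.8 to 25.6 CPM untreated. Most of that was TEK, at 34.3 to 37.8 CPM with TGF-β1 and 18.0 to 22.9 CPM untreated. The endothelial cadherin CDH5 was at 0.00 to 0.12 CPM with TGF-β1 and 0.07 to 0.13 CPM untreated. KDR and STAB2, also untested, reached at most 0.352 CPM in any library.

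Ephrins are ligands fixed to the cell surface, by a lipid anchor in class A and by a membrane-spanning stretch in class B. EFNB2, the ligand of EPHB4 and other EPHB receptors (chromosome 13, 106489731 to 106535662, minus strand), had 109.0, 95.7 and 96.1 CPM with TGF-β1, against 36.5, 34.0 and 34.0 CPM untreated. The groups did not overlap, and the log2 fold change was 1.52 ± 0.06 (adjusted p = 1.77e-25). An antisense gene, AL138689.2, covers 26.2% of its exonic bases and was also called higher, with 80, 56 and 47 counts with TGF-β1 and 21, 14 and 23 untreated, beside 2489 to 2743 and 953 to 1140 counts of EFNB2. Without knowledge of strand, reads in that stretch cannot be assigned between them. EFNB1 fell by 0.23 ± 0.08 (adjusted p = 0.0247), a call lost without either of TGF-β1 replicates 1 and 2 (-0.20 and -0.23, adjusted p = 0.0883 and 0.0584) or untreated replicates 1 and 2 (-0.19 and -0.23, adjusted p = 0.134 and 0.0591). EFNB3 had the same mean in both groups within its spread, 17.24 ± 0.57 CPM with TGF-β1 and 17.25 ± 0.91 CPM untreated (SD, n = 3), and was not called.

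Among the class A ephrins EFNA1 rose, with 3.15, 3.63 and 3.901 CPM with TGF-β1 and 2.72, 1.54 and 2.21 CPM untreated (0.72 ± 0.23, adjusted p = 0.0105). EFNA1 was not called without untreated replicate 2, the lowest library (0.52, adjusted p = 0.0918). EFNA4, the most abundant class A ephrin on the FPKM scale, had 4.29, 5.41 and 6.14 CPM with TGF-β1 and 4.64, 3.32 and 5.21 CPM untreated, with overlap and no call (0.27 ± 0.18, adjusted p = 0.262). EFNA3 and EFNA5 were not called either, at -0.04 ± 0.30 and 0.08 ± 0.11. AL691442.1, annotated on the same strand, covers 44.7% of EFNA3 and 14.96% of EFNA4 and had 0 counts in every library.

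Eph receptors showed small changes in their abundant members. EPHA2 (chromosome 1, 16124337 to 16156087, minus strand) had 207.5, 207.7 and 203.6 CPM with TGF-β1, against 185.3, 191.6 and 185.6 CPM untreated. The rise of 0.14 ± 0.04 was called (adjusted p = 0.00124), and was 0.02 and not called with library totals alone (adjusted p = 0.708). EPHB2 rose more, with 196.8, 201.7 and 195.9 CPM with TGF-β1 and 127.1, 124.2 and 124.6 CPM untreated (0.66 ± 0.04, adjusted p = 2.62e-19). EPHB1 rose by 0.71 ± 0.14 (adjusted p = 3.65e-05). EPHB4, the principal ephrin-B2 receptor of veins, rose by 0.14 ± 0.05 (adjusted p = 0.0307), a call lost in 4 of 6 fits with 1 library left out, without TGF-β1 replicate 2 or 3 (adjusted p = 0.0721 and 0.13) or untreated replicate 1 or 3 (adjusted p = 0.0898 and 0.147), and with library totals alone; the highest adjusted p of its 17 alternatives was 0.825.

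EPHA4, which binds ephrins of both classes, was the Eph receptor that fell, to 9.14, 10.5 and 10.8 CPM with TGF-β1, against 17.9, 17.7 and 18.5 CPM untreated (-0.83 ± 0.10, adjusted p = 1.05e-08). EPHA5 had 1.90, 1.29 and 1.85 CPM with TGF-β1 and 1.73, 3.38 and 2.82 CPM untreated and missed the threshold (-0.65 ± 0.27, adjusted p = 0.0516), but was called without TGF-β1 replicate 1 (-0.75, adjusted p = 0.0481) or untreated replicate 1 (-0.89, adjusted p = 0.0105). EPHA1, EPHB3 and EPHB6, the last a member without kinase activity, were not called, at -0.40 ± 0.33, -0.14 ± 0.12 and 0.13 ± 0.12. EPHA2 made up 96.6% ± 0.35 of the EPHA FPKM sum with TGF-β1 and 93.8% ± 0.32 untreated, and EPHB2 49.0% ± 0.82 of the EPHB sum with TGF-β1 and 40.1% ± 1.03 untreated (SD, n = 3).

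Co-receptors and effectors of the same pathways were taken from a list of 54 further genes, of which 46 were tested, 21 rose and 17 fell, with a median log2 fold change of 0.02; with library totals alone 14 rose and 19 fell. The called share of the list was 82.6%, beside 38.9% of all tested genes (20.2% higher, 18.7% lower) and 45.5% of tested protein-coding genes. Most of these calls were under 2-fold. A change of at least 2-fold was called for 3 higher and 1 lower of the 46, beside 3.11% and 3.4% of all tested genes. The median size of the log2 change was 0.322 in the list and 0.221 over all tested genes. Among 12 tested co-receptors and further ligands 3 rose and 8 fell, and among 34 tested intracellular effectors 18 rose and 9 fell. The 2 neuropilins moved apart. NRP2 had 512.2, 520.5 and 502.8 CPM with TGF-β1, against 191.9, 179.8 and 180.4 CPM untreated (1.48 ± 0.03, adjusted p = 4.52e-33), while NRP1 had 107.9, 112.6 and 105.9 CPM with TGF-β1, against 202.3, 196.0 and 195.7 CPM untreated (-0.86 ± 0.04, adjusted p = 1.05e-22). The groups of neither gene overlapped.

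The membrane-anchored netrin relative NTNG1 had the largest fall of the list, with 5.46, 6.70 and 3.59 CPM with TGF-β1 and 22.5, 21.1 and 21.8 CPM untreated (-2.05 ± 0.14, adjusted p = 3.08e-13). MICAL2, an actin-oxidising enzyme of the family that acts downstream of plexins, rose by 1.32 ± 0.04 (adjusted p = 1.49e-24). The kinase ABL1, which binds Robo receptors, rose by 0.89 ± 0.04 (adjusted p = 2.30e-22). Integrin β1 (ITGB1), the second receptor of SEMA7A, rose by 0.64 ± 0.03 (adjusted p = 2.20e-22), and neogenin (NEO1), a netrin receptor, fell by 0.43 ± 0.06 (adjusted p = 2.33e-07).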

How the data were processed

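RNA was measured in 6 LX-2 libraries in 2 groups of 3. The deposited count table holds whole-number read counts per gene, and the deposited FPKM table holds the authors' length- and depth-scaled levels; FPKM equalled counts over length and a library size 0.984 to 0.987 times the total count with TGF-β1 and 1.07 to 1.08 times untreated. The submitters' processing notes list HISAT2 2.2.1, fastp and build hg38. Counting tool and strand setting were not given in the sources used here. A further 6 per-sample columns of each matrix matched no sample and were not used. Gene positions matched GENCODE 29 for all 58735 identifiers.

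Counts were tested with edgeR 4.0.16 in R 4.3.3 (filterByExpr at a minimum count of 10 and minimum total of 15, TMM, robust glmQLFit and glmQLFTest, two-sided, Benjamini-Hochberg over 17215 genes, adjusted p under 0.05, 4 residual degrees of freedom). Fold changes are TGF-β1 over untreated, each standard error is the size of the log2 change over the root of F, and CPM values are TMM-scaled. Counting intervals are exact at 95%. Alternatives used DESeq2 1.42.0 and limma 3.58.1. Named genes were called members with at least 2-fold change and 1 CPM in the higher group, the most abundant member of each family, and up to 6 called pathway genes at 5 CPM or more; ITGB1, NEO1 and DCC were added for their role. The result of 1 pathway gene that the rule names is not reported here. The genes, lists and tests were chosen with earlier results of these data known.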

Additional observations from a re-analysis of the deposited data

How the results depend on the processing

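Across 17 alternatives, no called member was called in the opposite direction, and 21 of the 37 calls held in every alternative that tested the gene. Of the 15 calls of at least 2-fold, 13 were tested and held in all 14 count-based alternatives. SEMA3E and SEMA3G were called in the 13 that tested them, but the main filter had fixed their direction, so these calls add no support. With limma on log2(FPKM + 1) without a filter SEMA3E, SLIT3 and UNC5C were not called (adjusted p = 0.0766, 0.15 and 0.158). Library totals alone gave 2019 higher and 5354 lower genes over the whole table, against 3471 and 3226 with TMM, and limma on log2(FPKM + 1) without a filter gave 1881 lower. On log2(FPKM + 1) or log2(FPKM + 0.1) with a mean of at least 0.5 FPKM, 41 members were tested and 13 rose, 4 of them ligands. Without that filter 11 members rose (3 ligands) and 11 fell (2 receptors), and 10 genes of the co-receptor and effector list fell. Fewer members pass the FPKM filter, and a pseudocount of 1 shrinks the changes of low genes; other causes were not tested. Same-numbered libraries did not deviate together (r of -0.00, 0.01 and -0.01 for replicates 1, 2 and 3), and with the replicate block 20 members rose and 17 fell, as without it; over all genes it gave 3431 higher and 3182 lower. Leaving out 1 library gave 17 to 20 members higher and 14 to 18 lower; 8 called members lost their call in at least 1 such fit, their main log2 changes being at most 0.72 in size, and 6 others gained one (EPHA5, ROBO1, ROBO3, SEMA3C, SEMA4G, SEMA6C). Genes under about 1 CPM rest on few reads.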
